A study of Mus musculus with 8 samples.

Results

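The immune checkpoint ligands are 9 genes, *Cd274*, *Pdcd1lg2*, *Cd80*, *Cd86*, *Cd276*, *Icosl*, *Lgals9*, *Cd47* and *Pvr*, picked by symbol from the 33641 gene symbols listed for each sample. They were measured by RNA-seq in tumor endothelial cells (TECs) of mice with lung tumors, in 4 control and 4 endFoxf1+/- samples. Each sample is called a library here, and the control libraries are numbered C1 to C4 while those of endFoxf1+/- mice are numbered H1 to H4. Lewis lung carcinoma (LLC) cells, a mouse lung tumor line labelled with mCherry, were placed in the left lung, and CD45-CD31+ cells were sorted by FACS from microdissected tumors at day 21. In endFoxf1+/- mice (*Pdgfb*-iCreER/Foxf1 fl/+ on a C57Bl/6 background) tamoxifen, given by gavage as 3 mg at 6 to 8 weeks of age, activates a Cre recombinase driven by the *Pdgfb* promoter, which deletes 1 allele of *Foxf1* in endothelial cells. The controls are labelled only as control. The study names littermates with a single transgene, either *Foxf1* fl/+ or the Cre, as controls of its heterozygous mice. It names C57Bl/6 wild-type mice where it describes this tumor model. Which of these genotypes each control library has was not read from the labels. The study gave tamoxifen before the LLC cells. The dose (3 mg) and the age (6 to 8 weeks) are taken as the same for control and endFoxf1+/- mice. All 8 mice carried the tumor, and no library comes from tumor-free lung.

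Checkpoint ligands are surface or secreted proteins that bind receptors on T cells, NK cells or macrophages and lower or raise their activity. Antigen-presenting cells carry most of them, and endothelial cells carry some, among them PD-L1, the product of *Cd274*, which interferon-gamma induces. Endothelial cells meet leukocytes as they leave the blood, so that ligands on the vessel wall can act on cells entering a tumor.

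Expression was deposited as TPM, a level of transcript abundance per gene that is corrected for transcript length and scaled to the same total in each library, so that levels can be compared between genes. TPM keep no read number, and the depth behind each value is unknown. *Foxf1*, the deleted gene, was lower in all 4 endFoxf1+/- libraries, 281 ± 49.5 TPM in control and 125 ± 84.6 TPM in endFoxf1+/- TECs (SD, n = 4 each, no overlap), with 177, 203 and 105 TPM in H1, H2 and H4 and 14.04 TPM in H3. An exact permutation test, which like all those below was two-sided, gave p = 0.0286, the lowest value possible with 4 libraries in each group. Library H3 stood apart from the others. All 20 of a list of endothelial markers were lowest in H3, where their geometric mean was 0.0566 times the mean of the other 7 libraries, and all 12 of a list of pan-leukocyte markers were highest there. The summed TPM of the leukocyte list was 127 to 205 in control libraries and 202 to 1498 in endFoxf1+/- libraries, and none of the 12 genes was at 0 in all libraries. The mean log2(TPM + 1) of this list did not overlap, at 2.61 to 3.38 in control and 3.52 to 6.15 in endFoxf1+/- libraries (difference 1.13, exact permutation test, p = 0.0286). *Ptprc*, which encodes CD45, the marker the sort was gated against, was 2.94 to 9.13 TPM in control libraries, 16.5 in H1, 9.93 in H2, 6.61 in H4 and 91.2 in H3. Library H4 had endothelial markers at 55.6% of the control mean and the most TPM in a single transcript (*Gm20594*, 21.8%). Log2 differences between the groups are therefore given with and without H3. In sorted bulk RNA, fewer cells of a type and less RNA per cell cannot be told apart.

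The ligands ranged from barely listed to among the most abundant transcripts. In control TECs the order of mean TPM was *Cd47* (505.5 ± 64.0), *Lgals9* (275 ± 36.3), *Pvr* (85.0 ± 9.63), *Cd274* (52.7 ± 6.46), *Icosl* (6.38 ± 1.57), *Cd86* (4.73 ± 1.02), *Cd276* (1.81 ± 0.67), *Cd80* (0.67 ± 0.46) and *Pdcd1lg2* (0.17 ± 0.19, SD, n = 4 each). The first 4 were each above the next gene in all 8 libraries, and *Cd47* lay at the 99.1 to 99.4 percentile of all listed genes in the control libraries. The control ranges of *Icosl* and *Cd86* overlapped, and so did those of *Cd276* and *Cd80* and of *Cd80* and *Pdcd1lg2*. *Cd80* and *Pdcd1lg2* did not reach a TPM of 1 in 4 libraries and were left out of the test across all genes, which covered the other 7 ligands among 14964 genes.

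**Figure D1:**
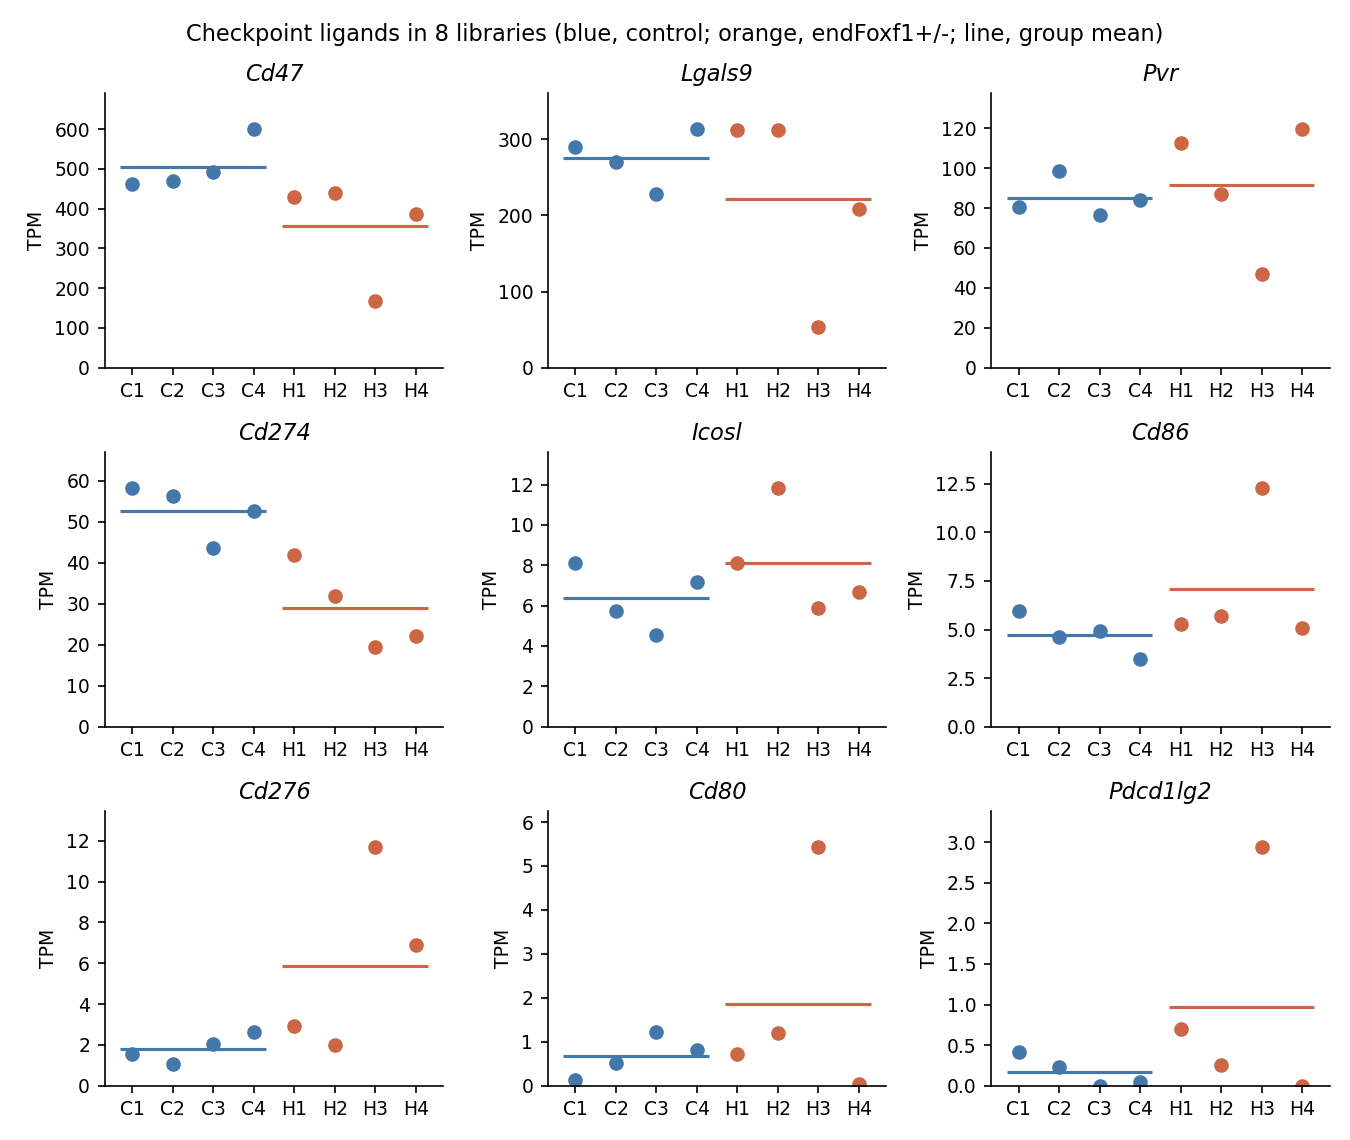
TPM of the 9 checkpoint ligands (vertical axes, linear, from 0) in each of the 8 libraries (horizontal axes; blue points, control; orange points, endFoxf1+/-; lines, group means). The 4 endFoxf1+/- points of *Cd274* and of *Cd47* lie below all 4 control points, and in H3 *Cd86*, *Cd276*, *Cd80* and *Pdcd1lg2* are highest while *Cd274*, *Lgals9*, *Cd47* and *Pvr* are lowest.

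None of the 7 tested ligands passed an adjusted p of 0.05 between the groups (limma, adjusted by Benjamini-Hochberg), where 0% of all tested genes passed and 836 genes had an unadjusted p under 0.05. An unadjusted p under 0.05 was reached by 1 ligand in the lower direction, *Cd274* (2.77% of all tested genes), and by 1 in the higher direction, *Cd276* (2.82% of all tested genes). The TPM of 2 of the 7 ligands, *Cd274* and *Cd47*, were lower in endFoxf1+/- TECs without overlap between the groups, as in 2.31% of all tested genes. None of the ligands was higher without overlap, as 2.73% of all tested genes were. Without H3 the same 2 ligands were lower without overlap, against 2.6% of all tested genes. The median log2 fold change of all tested genes was -0.17 with all libraries and 0.013 without H3, and -0.016 after scaling by median ratios, so values relative to that median are given below where it matters.

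**Figure D2:**
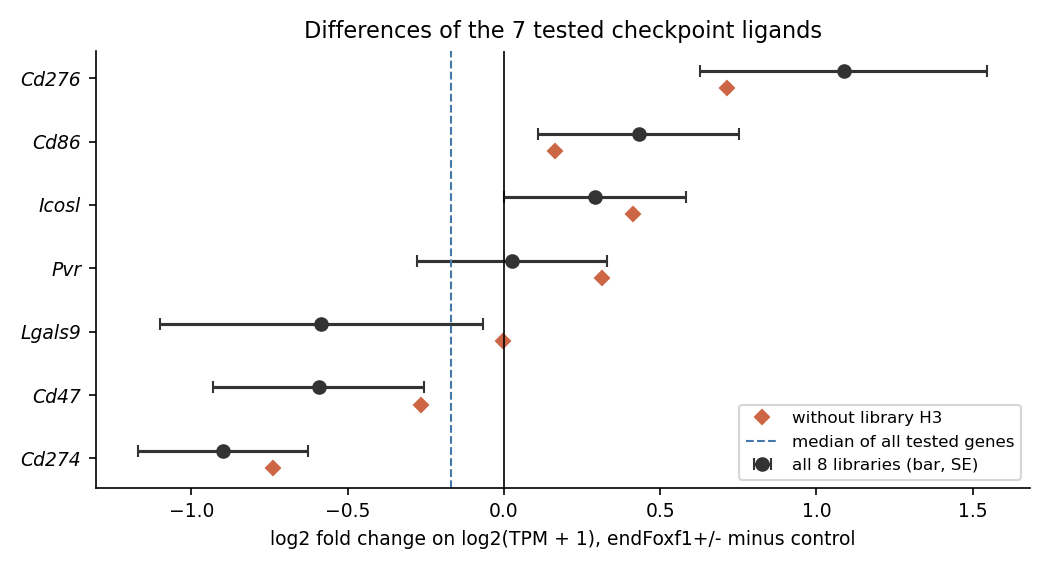
Log2 fold change of the 7 tested ligands on the log2(TPM + 1) scale (horizontal axis, endFoxf1+/- minus control; black points with bars, fit of all 8 libraries with SE; orange diamonds, without H3; dashed line, median of all tested genes at -0.17). *Cd274* moves from -0.90 to -0.74 without H3, while *Lgals9* moves from -0.58 to -0.0020.

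The PD-1 ligands were examined first. *Cd274* encodes PD-L1, which binds the inhibitory receptor PD-1 on T cells. Its TPM were 58.2, 56.4, 43.7 and 52.5 in control libraries C1 to C4, and 42.0, 31.9, 19.5 and 22.2 in endFoxf1+/- libraries H1 to H4. Every endFoxf1+/- library was thus below every control library, with the narrowest gap between C3 and H1. Mean TPM was 52.7 ± 6.46 in control and 28.9 ± 10.2 in endFoxf1+/- TECs (SD, n = 4 each), a ratio of 0.549. On the log2(TPM + 1) scale the difference was -0.90 (SE 0.27, adjusted p = 0.79 from limma), or -0.73 relative to the median of all genes. The exact permutation test of *Cd274* alone gave p = 0.0286, without adjustment for the other genes. Without H3 the difference was -0.74 (exact permutation test, p = 0.0286, the smallest for 4 against 3 libraries). With any 1 control library left out, p was 0.0571 (exact permutation test). The difference was -0.50 without H3 and H4 and -0.47 with array weights, which give H3 and H4 little weight. The groups also did not overlap under scaling by median ratios or quantile normalization. Over all alternatives the adjusted p of *Cd274* from limma was 0.148 to 0.975.

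*Pdcd1lg2* encodes PD-L2, the other PD-1 ligand, and lies next to *Cd274* on chromosome 19 (GRCm38, gene annotation GENCODE M21). The annotated gap between the end of *Cd274* (chr19:29367455-29388095) and the start of *Pdcd1lg2* (chr19:29410919-29471161) is 22823 bases, and both genes are on the plus strand. Its TPM were 0.42, 0.23, 0 and 0.047 in control libraries and 0.70, 0.25, 2.94 and 0 in endFoxf1+/- libraries. *Pdcd1lg2* was thus above 1 TPM only in H3, at 12.5 times the mean of the other 7 libraries, and the groups overlapped (exact permutation test, p = 0.314, or 0.6 without H3). Genes are annotated on the opposite strand over *Cd274* (*AC119228.1*), *Pdcd1lg2* (*A930007I19Rik*), *Cd276* (*Gm10657*) and *Pvr* (*Gm16184* and *Gm16251*). The library kit does not mark the strand, so reads of these pairs cannot be told apart. Of these, *Gm16184* was listed at 3.97 to 13.6 TPM, against 46.9 to 120 TPM for *Pvr*.

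*Cd80* and *Cd86* encode the B7 proteins of antigen-presenting cells, which bind the activating receptor CD28 and the inhibitory receptor CTLA-4. The TPM of *Cd86* were 5.94, 4.60, 4.92 and 3.46 in control libraries and 5.29, 5.68, 12.3 and 5.08 in endFoxf1+/- libraries. Library H3 was the highest, and H1, H2 and H4 lay within the control range. The log2 difference of *Cd86* was 0.43 (SE 0.32, adjusted p = 0.791 from limma) and 0.17 without H3 (exact permutation test, p = 0.2 and 0.4). The TPM of *Cd80* were 0.13, 0.51, 1.21 and 0.82 in control libraries and 0.72, 1.21, 5.43 and 0.049 in endFoxf1+/- libraries. *Cd80* was highest in H3 and lowest in H4, and its log2 difference went from 0.47 to -0.031 when H3 was left out (exact permutation test, p = 0.571 and 0.914).

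*Icosl* encodes the ligand of ICOS, a costimulatory receptor of T cells, and is known to be present on endothelium. Its TPM were 8.11, 5.71, 4.54 and 7.15 in control libraries and 8.13, 11.8, 5.88 and 6.68 in endFoxf1+/- libraries. H2 was the highest, the groups overlapped and H3 lay within the range of the other libraries. The log2 difference was 0.29 (SE 0.29, adjusted p = 0.805 from limma) and 0.41 without H3 (exact permutation test, p = 0.314 and 0.171). It was 0.11 without H2 and 0.16 without C3.

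*Cd276* encodes B7-H3, a member of the B7 family whose receptor is not settled and which is known on tumor vessels, fibroblasts and tumor cells. Its TPM were 1.54, 1.06, 2.03 and 2.63 in control libraries and 2.92, 1.98, 11.7 and 6.88 in endFoxf1+/- libraries. Libraries H1, H3 and H4 were above all controls, and H2 lay within the control range. The log2 difference was 1.09 (SE 0.46, adjusted p = 0.79 from limma) and 0.71 without H3 (exact permutation test, p = 0.0857 and 0.143), and 0.31 without H3 and H4. The 2 highest libraries were H3 and H4, the ones with the lowest endothelial markers. Fibroblast and pericyte markers summed to 102 to 180 TPM in the control libraries and 167 to 1349 TPM in the endFoxf1+/- libraries, with 4 of 11 genes highest and 3 lowest in H3, so the list did not move as one. Their part in the *Cd276* values was not tested.

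*Cd47* encodes the ligand of SIRP-alpha, an inhibitory receptor of macrophages that restrains phagocytosis. Its TPM were 462, 469, 491 and 600 in control libraries and 429, 440, 169 and 386 in endFoxf1+/- libraries. All endFoxf1+/- libraries were below all controls, but H1 and H2 lay close under C1, and H3 was far below the rest. The log2 difference was -0.59 (SE 0.34, adjusted p = 0.79 from limma, exact permutation test, p = 0.0286), or -0.42 relative to the median of all genes. Without H3 the log2 difference was -0.27 (exact permutation test, p = 0.0571), and without any 1 control library the exact permutation p was 0.114 to 0.143. The absence of overlap did not hold after quantile normalization or median ratio scaling. After the latter *Cd47* in H4 (425) was above C1 (393). Of an erythroid and platelet list, all 9 tested genes were lower in endFoxf1+/- libraries, against 10182 of 14964 tested genes. Without H3, 8 were lower and 1 higher, against 7224 and 7740 of all tested genes. The part of such transcripts in the *Cd47* values was not tested.

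*Lgals9* encodes galectin-9, a secreted lectin that binds TIM-3, the product of *Havcr2*. Its TPM were 290, 270, 228 and 313 in control libraries and 312, 312, 53.6 and 208 in endFoxf1+/- libraries. H1 and H2 were close to the highest control while H3 and H4 were below all controls, and H3 held 0.194 times the mean of the other 7 libraries. The log2 difference was -0.58 (SE 0.52, adjusted p = 0.797 from limma) and -0.0020 without H3 (exact permutation test, p = 0.486 and 0.943).

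*Pvr* encodes CD155, which binds the inhibitory receptors TIGIT and CD96 and the activating receptor CD226. Its TPM were 80.6, 98.7, 76.7 and 83.9 in control libraries and 113, 87.1, 46.9 and 120 in endFoxf1+/- libraries. H1 and H4 were above all controls and H3 was below them. The log2 difference was 0.026 (SE 0.30, adjusted p = 0.984 from limma) and 0.31 without H3 (exact permutation test, p = 0.971 and 0.114).

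Which ligands followed leukocyte transcripts and which followed endothelial ones was read from their correlation over the 8 libraries with *Ptprc* and with the mean log2(TPM + 1) of the 20 endothelial markers. Each ligand was put with the anchor of the higher Spearman rho where that was at least 0.5. These are descriptions of 8 points that share library composition, chiefly that of H3, and the anchors were themselves opposed (rho = -0.548 between *Ptprc* and the endothelial markers). *Ptprc* was followed by 3 ligands, *Cd86* (rho = 0.786), *Pdcd1lg2* (0.671) and *Cd80* (0.548). The endothelial markers were followed by 3 others, *Lgals9* (rho = 0.833), *Cd274* (0.738) and *Cd47* (0.69). *Cd276* had a negative rho with the endothelial markers (-0.643) and 0.429 with *Ptprc*, while *Icosl* (0.476 and 0.214) and *Pvr* (0.0476 and -0.31) followed neither.

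**Figure D3:**
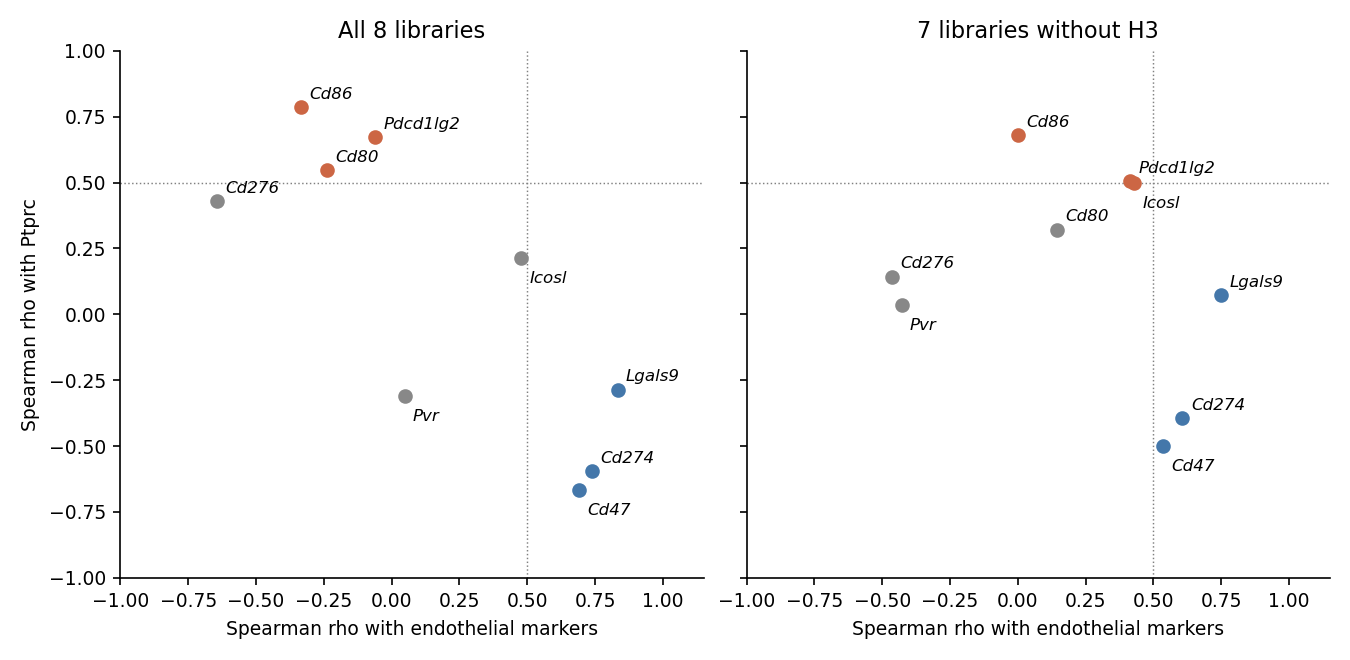
Spearman rho of each ligand with the endothelial markers (horizontal axis) and with *Ptprc* (vertical axis) over all 8 libraries (left) and the 7 without H3 (right). Dotted lines mark 0.5, blue points follow the endothelial markers, orange points *Ptprc* and grey points neither, and *Lgals9*, *Cd274* and *Cd47* stay blue in both panels.

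*Lgals9* and *Cd86* kept their place under 14 of 15 alternatives, which used Pearson's r, other anchors, the spread of the log2 difference and other sets of libraries. Most of these alternatives kept H3, so the counts do not show that a place holds without it. *Pdcd1lg2*, *Cd47*, *Cd274* and *Pvr* kept theirs under 13, *Cd80* under 9, and *Icosl* and *Cd276* under 8. *Cd274* followed neither with *Pecam1* in place of the endothelial list (rho = 0.452). *Cd47* followed neither without C4 and H3 (rho = 0.257 with the endothelial markers), and without H3 and H4 both followed neither. The exception for *Lgals9* and *Cd86* was the set of 6 libraries without C4 and H3, the ones farthest from the median of *Ptprc*, which was added after the data were seen. There *Lgals9* had a rho of 0.714 with *Ptprc* and 0.6 with the endothelial markers, and *Cd86* one of 0.486 and 0.6, so that each changed sides. By Pearson's r *Lgals9* was the ligand closest to the endothelial markers, with r = 0.993 over 8 libraries, 0.885 over 7 without H3 and 0.87 over 6 without H3 and H4. For *Cd274* the corresponding values were 0.757, 0.788 and 0.183, and for *Cd47* they were 0.964, 0.598 and 0.148, so the place of these 2 ligands rests on the libraries with few endothelial transcripts. For the ligands placed with *Ptprc*, r without C4 and H3 was 0.702 for *Pdcd1lg2* (0.939 with all), 0.467 for *Cd80* (0.81) and 0.323 for *Cd86* (0.956). The levels in H3, which carry much of these correlations, were as follows. Against the mean of the other 7 libraries H3 held 8.16 times as much *Cd80*, 2.46 times as much *Cd86* and 4.3 times as much *Cd276*, but 0.445 times as much *Cd274*, 0.36 times as much *Cd47* and 0.498 times as much *Pvr*. For comparison, *Ptprc* in H3 was 10.7 times and *Pecam1*, which encodes CD31, was 0.0621 times that mean. *Cd274*, *Cd47* and *Pvr* were thus nearer to their level in the other libraries than the endothelial markers were.

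Each ligand was then set against the endothelial markers within its library, as the difference of log2(TPM + 1) from their mean. For *Cd274* this was -3.23, -3.22, -3.31 and -3.42 in control libraries and -3.61, -4.07, -0.50 and -3.65 in endFoxf1+/- libraries. H1, H2 and H4 were below all controls, and H3, with few endothelial transcripts, was far above them. With H3 the group difference was therefore 0.34 (exact permutation test, p = 1), and without it -0.48 (exact permutation test, p = 0.0286). With *Pecam1* in place of the list the values were 0.15 and -0.68. Without H3, *Cd274* was the only one of the 7 tested ligands that was lower relative to the endothelial markers with no overlap, as were 1.06% of all tested genes.

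*Icosl* and *Lgals9* were higher relative to the endothelial markers with no overlap, both with H3 (differences of 1.53 and 0.65) and without it (0.67 and 0.26, exact permutation test, p = 0.0286 for each of the 4 values). This was common, since 12.3% of all tested genes with H3 and 12.4% without H3 were higher in the same way, and with *Pecam1* as the anchor both ligands overlapped between the groups. *Cd47*, lower in TPM, differed by 0.64 relative to the endothelial markers with H3 and by -0.0091 without it (exact permutation test, p = 0.543 and 0.971).

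Relative to *Ptprc*, *Cd274* was lower in all endFoxf1+/- libraries. The TPM ratio of *Cd274* to *Ptprc* was 7.09, 8.78, 4.78 and 17.9 in control libraries and 2.54, 3.22, 0.214 and 3.36 in endFoxf1+/- libraries. On the log2(TPM + 1) scale the difference was -2.30 (exact permutation test, p = 0.0286) and -1.39 without H3 (exact permutation test, p = 0.0571). Of the 7 tested ligands it was the only one lower without overlap in this comparison, against 12.4% of all tested genes. With the mean of the pan-leukocyte list as the anchor, *Cd86* (-0.70) and *Cd47* (-1.73) were also lower without overlap (exact permutation test, p = 0.0286 each). The share of all tested genes was not computed for that anchor.

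**Figure D4:**
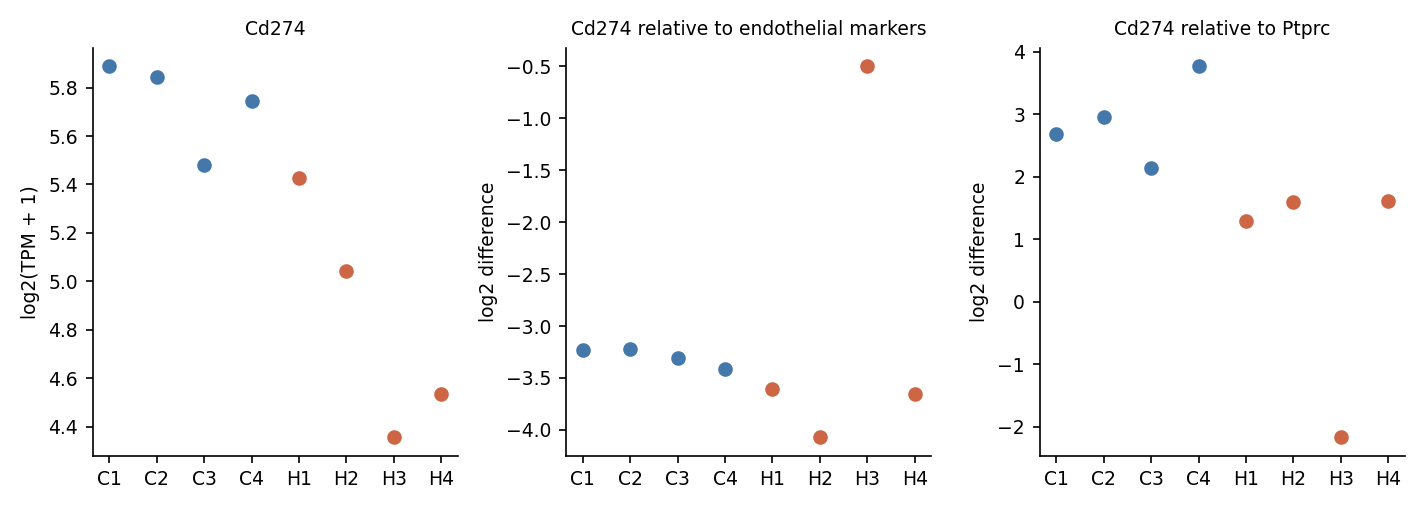
*Cd274* in each library (blue, control; orange, endFoxf1+/-) as log2(TPM + 1) (left), as the log2 difference from the mean of 20 endothelial markers (middle) and as the log2 difference from *Ptprc* (right). The vertical axes do not start at 0, and the middle panel shows H3 at -0.50 against -4.07 to -3.22 in the other libraries.

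The regulators of PD-L1 were read from a list of 20 genes of interferon-gamma signalling and PD-L1 control, of which 19 were tested. None passed the adjusted threshold, 14 were lower and 5 higher, with a median log2 fold change of -0.25 against -0.17 for all tested genes, and without H3 8 were lower and 11 higher. Of all tested genes 10182 of 14964 were lower with H3. *Irf1*, a transcription factor that interferon-gamma induces, was 251, 185, 162 and 187 TPM in control libraries and 172, 153, 50.9 and 122 TPM in endFoxf1+/- libraries, with overlap between C3 and H1 (log2 difference -0.77, and -0.39 without H3).

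*Rela*, which encodes an NF-kappaB subunit, was the only gene of this list without overlap when all libraries were used, against 2.31% of all tested genes in the lower direction and 2.73% in the higher. It was 70.6, 87.4, 89.6 and 76.5 TPM in control libraries and 65.9, 52.1, 27.5 and 61.9 TPM in endFoxf1+/- libraries (log2 difference -0.70, SE 0.29, adjusted p = 0.79 from limma, and -0.43 without H3). Without H3, *Cmtm4*, a relative of *Cmtm6* named here after its values were seen, was also without overlap and higher (log2 difference 0.26), as were 973 of 14964 tested genes. Among the genes of largest difference, *Myc* was higher in 3 endFoxf1+/- libraries than in all controls (log2 difference 1.26, SE 0.63, and 0.53 without H3), and *Irf9*, a transcription factor of interferon signalling, had a log2 difference of -0.79 (SE 0.42), and -0.38 without H3. *Ifngr1*, the receptor chain that binds interferon-gamma, had a log2 difference of -0.46 (SE 0.29), and -0.21 without H3. *Cmtm6*, which keeps PD-L1 at the cell surface, was 47.9 to 51.8 TPM in control libraries and 59.8, 43.9, 13.9 and 48.5 in endFoxf1+/- libraries, and its log2 difference was -0.44 with H3 and 0.0012 without it. *Ifng* itself was under 1 TPM in all libraries except C3 (1.58) and H3 (4.97).

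*Cd274* ran with *Irf1* across libraries. Over the 8 libraries Pearson's r was 0.873 and Spearman's rho 0.952, and r was 0.976 over the 6 libraries without C1 and H3, those farthest from the median of *Irf1*. These points share library composition and the difference between the groups, and are given without a test. C3 was the lowest control in both genes. Relative to the endothelial markers and without H3, *Irf1* differed by -0.13 (exact permutation test, p = 0.514).

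**Figure D5:**
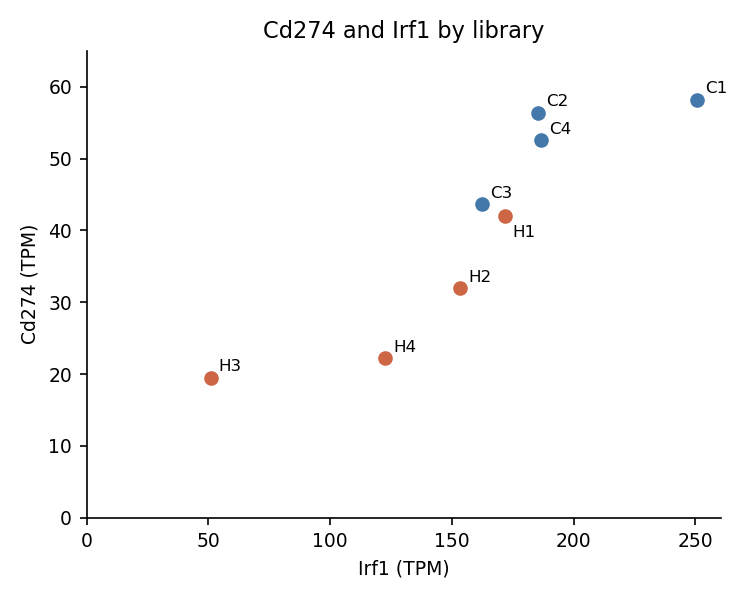
*Cd274* (vertical axis, TPM) against *Irf1* (horizontal axis, TPM) in each library (blue, control; orange, endFoxf1+/-). C1 is highest in both genes, at 251 TPM of *Irf1* and 58.2 TPM of *Cd274*, and H3 is lowest in both.

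The sequence upstream of the RefSeq gene start is shown for the 3 ligands that followed the endothelial markers over all 8 libraries. RefSeq entries were at hand for 7 of the 9 ligands, in 8 windows, with the coordinates of GRCm38.p6. Each sequence is the 250 bases before the RefSeq start, 5′ to 3′ on the strand of the gene, with matches to the motif GAAANNGAA on either strand in capitals. The windows are chr19:29367188-29367437 on the plus strand (*Cd274*), chr16:49855404-49855653 on the plus strand (*Cd47*, the first of its 2 windows) and chr11:78984925-78985174 on the minus strand (*Lgals9*). In GENCODE M21 *Cd47* spans chr16:49800533-49915010, so its window lies inside the gene by that annotation.
Cd274: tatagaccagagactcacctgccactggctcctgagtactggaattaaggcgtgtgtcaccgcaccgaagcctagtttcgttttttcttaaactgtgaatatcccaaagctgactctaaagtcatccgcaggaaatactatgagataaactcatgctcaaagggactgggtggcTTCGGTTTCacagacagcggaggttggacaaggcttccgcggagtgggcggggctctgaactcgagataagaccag
Cd47: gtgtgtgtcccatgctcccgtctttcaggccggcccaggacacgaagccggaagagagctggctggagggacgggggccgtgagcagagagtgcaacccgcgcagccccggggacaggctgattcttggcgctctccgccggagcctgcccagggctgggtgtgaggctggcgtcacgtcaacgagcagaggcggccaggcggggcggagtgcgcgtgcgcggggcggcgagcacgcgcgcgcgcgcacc
Lgals9: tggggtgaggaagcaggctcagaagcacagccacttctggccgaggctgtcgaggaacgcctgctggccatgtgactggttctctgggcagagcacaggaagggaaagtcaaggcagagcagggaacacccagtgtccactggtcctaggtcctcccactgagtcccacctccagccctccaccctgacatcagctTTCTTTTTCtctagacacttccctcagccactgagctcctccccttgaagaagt

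The motif GAAANNGAA is contained in the interferon-stimulated response element that IRF proteins bind. On either strand it was found in 2 of the 8 ligand windows and in 7.13% of 32851 promoter windows of the same length. In *Cd274* it lay at -76 to -68, and in *Lgals9* at -54 to -46, counted from the RefSeq start, where the base before the start is -1. The forkhead motifs GTAAACA (3.17% of all windows) and ATAAACA (4.16%) were in none of the ligand windows. The GC content of the windows was 50.4% for *Cd274*, 73.2% for *Cd47* and 58.4% for *Lgals9*. A match is a run of letters and not a measured site.

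The receptors of these ligands are known mainly from leukocytes, and 5 of 9 were tested. None passed the adjusted threshold, and 3 were lower and 2 higher, or 4 and 1 without H3. *Havcr2*, which encodes the galectin-9 receptor TIM-3, was 2.48, 1.76, 2.15 and 0.99 TPM in control libraries and 2.90, 3.95, 23.6 and 3.85 TPM in endFoxf1+/- libraries. It was higher in every endFoxf1+/- library than in every control, as were 2.73% of all tested genes. Its log2 difference was 1.31 (SE 0.55, adjusted p = 0.79 from limma) and 0.70 without H3. Without H3, 973 of 14964 tested genes were higher without overlap. *Havcr2* is known in macrophages and dendritic cells as well as T cells. All 16 of a macrophage and monocyte list were highest in H3. Their sum was 1556 to 5258 TPM in control and 2263 to 11212 TPM in endFoxf1+/- libraries. Most of this sum was *Lyz2* (1351 to 4955 TPM in control and 1582 to 6870 TPM in endFoxf1+/- libraries). The mean log2(TPM + 1) of the list, in which no single gene dominates, was 3.99, 3.89, 3.87 and 3.17 in control libraries and 4.69, 4.88, 7.43 and 4.07 in endFoxf1+/- libraries. This mean did not overlap between the groups (difference 1.53, exact permutation test, p = 0.0286). Without H3 all 16 genes had a positive log2 difference, as did 7740 of 14964 tested genes. With all libraries 4 of the 16 were higher without overlap, against 2.73% of all tested genes. *C1qc* in H4 (6.18 TPM) was below all controls (7.01 to 17.8 TPM). The part of macrophages and monocytes in the *Havcr2* values was not tested.

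*Sirpa*, the receptor of CD47, was 51.8, 63.5, 85.5 and 95.2 TPM in control libraries and 46.1, 39.7, 66.9 and 25.6 TPM in endFoxf1+/- libraries. H1, H2 and H4 were below all controls, as in 2.6% of all tested genes, and H3 lay within the control range. The log2 difference was -0.76 (SE 0.32, adjusted p = 0.79 from limma), and -0.98 without H3. Of the receptors of CD155, *Cd226* was 9.63 to 19.5 TPM in control libraries and 8.76, 5.22, 2.72 and 13.2 TPM in endFoxf1+/- libraries (log2 difference -1.14, SE 0.43, adjusted p = 0.79 from limma, and -0.80 without H3). *Tigit* was 5.74 to 11.6 TPM in control and 2.68 to 15.7 TPM in endFoxf1+/- libraries. Unlike the leukocyte markers, *Cd226* was lowest in H3, and *Sirpa* and *Tigit* were not highest there. Which cells carried these transcripts was not tested. *Cd96* was under 1 TPM in all libraries and thus not tested, and did not overlap between the groups (0.08 to 0.24 against 0.32 to 0.95). The receptors of PD-L1 and the B7 proteins were low, with *Pdcd1* at 0 to 1.29 TPM, *Cd28* at 0.40 to 2.60 and *Ctla4* at 0.08 to 5.48, each highest in H3.

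Among 24 other ligands and partners of checkpoint receptors, 17 were tested, none passed the adjusted threshold, and 10 were lower and 7 higher, with a median log2 fold change of -0.47 against -0.17 for all tested genes, and of -0.17 against 0.013 without H3. The groups did not overlap for 4 of them, 2 lower and 2 higher, against 2.31% and 2.73% of all tested genes. *Cd200*, whose product restrains macrophages and is known on endothelium, was 494, 1075, 622 and 660 TPM in control libraries and 425, 492, 43.7 and 363 TPM in endFoxf1+/- libraries. Its highest endFoxf1+/- value was just under its lowest control value (log2 difference -1.50, SE 0.71, and -0.69 without H3). *Cd24a*, which encodes a ligand of inhibitory Siglec receptors, was 305 to 325 TPM in control libraries and 223, 232, 45.0 and 149 TPM in endFoxf1+/- libraries, with a wide gap between the groups (log2 difference -1.21, SE 0.47, adjusted p = 0.79 from limma, and -0.68 without H3).

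*Lgals3*, which encodes galectin-3, was 45.6 to 71.8 TPM in control libraries and 102, 107, 823 and 122 TPM in endFoxf1+/- libraries (log2 difference 1.53, SE 0.62, and 0.81 without H3). *Cd48*, a leukocyte surface protein, was 1.47 to 3.79 TPM in control libraries and 5.81, 5.85, 38.3 and 5.64 TPM in endFoxf1+/- libraries (log2 difference 1.55, SE 0.58, and 0.92 without H3). Both were thus higher in H1, H2 and H4 as well as in H3. *Ido1*, an enzyme that interferon-gamma induces and that breaks down tryptophan, had a log2 difference of -1.65 (SE 0.72, and -0.84 without H3) and *Lgals1* one of 1.84 (SE 0.77, and 0.95 without H3), both with overlap between the groups. *Vsir*, which encodes VISTA, had a log2 difference of -0.76 (SE 0.44), and -0.47 without H3. *Nectin2*, a ligand of TIGIT and CD226, had one of -0.59 (SE 0.44), and -0.20 without H3. *Thbs1*, whose product binds CD47, had one of -0.15 (SE 0.38), and -0.089 without H3. For none of these 3 did the groups separate.

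The tested genes with the course most like each ligand were found by Pearson's r of log2(TPM + 1) over the 8 libraries. For *Cd274* these were *Polr2l* (r = 0.998), *Gm8062* (0.988) and *Spdya* (0.98), and over the 7 libraries without H3 *Polr2l* (0.997), *Gm8062* (0.983) and *Rnaseh2a* (0.974). *Polr2l*, a subunit shared by RNA polymerases, was the nearest gene in both. For *Lgals9* they were *Smco4* (0.998), *Gnai2* (0.997) and *Mtmr2* (0.997), and without H3 *Lysmd4*, *Esam* and *Golga7* (0.986 to 0.992), of which *Esam* is an endothelial junction gene of the marker list. For *Cd47* they were *Bsdc1*, *Gnao1* and *Klf7* (0.993 to 0.995), and without H3 *Creb5*, *Klf7* and *Coro6* (0.975 to 0.978). For the remaining ligands the nearest gene over 8 libraries was *Arl11* for *Cd86* (0.983), *Cxxc5* for *Cd276* (0.982), *Cryzl1* for *Icosl* (0.974) and *Tmem177* for *Pvr* (0.991). The 3 nearest genes of *Cd276* included *Col6a1* (0.98), a collagen gene. These genes were picked from 14964 for their r, which is given as a description.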

How the data were processed

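RNA-seq was analysed for CD45-CD31+ cells from 4 control and 4 endFoxf1+/- mice. TPM per gene symbol were deposited by the authors, whose processing notes name TopHat, Cufflinks, Subread, DESeq2, GRCm38 and mm10; which of these made the TPM, and with which annotation, is not given in the sources used here. The TPM were used as deposited. Genes that reached a TPM of 1 in 4 or more libraries were fitted on the log2(TPM + 1) scale with limma 3.58.1 (R 4.3.3, eBayes with trend, Benjamini-Hochberg adjustment, threshold 0.05); the pseudocount of 1 understates changes of low genes. Single genes were tested two-sided by exact permutation over 70 assignments (Python 3.11.15, scipy 1.17.1). The authors' DESeq2 step needs counts and was not repeated. Groups were taken from the labels, and libraries were numbered in accession order. The fit was tested on simulated data. Named genes were the ligands, *Ptprc*, *Pecam1*, *Foxf1*, 13 genes chosen for their role, per list the genes without overlap and those of largest fold change to 5, and the 3 genes most like each ligand. Of the genes this rule names, 1 is not reported here. The members and lists were chosen with earlier results of these data known. Alternatives were other pseudocounts, filters, scalings, weights, anchors and sets of libraries.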

Additional observations from a re-analysis of the deposited data

Results flagged for a closer look

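In 3 of 24 groups of 4 libraries checked, 1 library lay far from the other 3 on the log2(TPM + 1) scale by Dixon's test, and chance flags about 1 in 20 groups. All 3 cases are endFoxf1+/- library H3: *Cd86* at 12.3 TPM, above the others, and *Cd47* at 169 TPM and *Pecam1* at 77.5 TPM, below them. Endothelial markers in H3 were at 0.0566 times the mean of the other 7 libraries. The part of sorting or tissue composition in these values was not tested.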

How the results depend on the processing

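Across the 17 alternatives of the fit, 0 ligands passed an adjusted p of 0.05, and *Cd274*, *Cd86*, *Cd276*, *Icosl* and *Cd47* kept their direction in every alternative where they were tested, though not their size. Array weights gave -0.47 for *Cd274*, -0.25 for *Cd47* and 0.48 for *Cd276*, and leaving out H3 and H4 gave -0.50, -0.21 and 0.31. Of all genes 148 passed with array weights and 3 without H3 and H4, and leaving out 1 library gave 0 to 1 (1 without C1 or without H3). Under quantile normalization or median ratio scaling 1 ligand (*Cd274*) did not overlap between the groups. In every set with libraries left out *Cd274* and *Cd47* stayed lower without overlap. *Cd86* without C1, *Cd276* without H2, and *Icosl* without H3 and H4 were also higher without overlap. The share of all tested genes was not computed for these 3 sets. *Lgals9* turned from -0.58 to 0.14 with array weights and to 0.19 without H3 and H4. Leaving out 1 library gave -0.13 to 0.31 for *Pvr* and -0.031 to 0.84 for *Cd80*. It gave -0.48 to 0.71 for *Cd274* and -0.0091 to 0.95 for *Cd47* relative to endothelial markers, and -0.91 to 0.11 for *Cd276* relative to *Ptprc*. H3 set the lowest of these for *Cd80*, *Cd274* and *Cd47*. Leaving out 1 control library each ended the exact call of *Icosl* and *Lgals9* relative to endothelial markers (p = 0.0857 to 0.114 and 0.171, exact permutation test), and leaving out C1, C2, C4 or H3 that of *Cd274* relative to *Ptprc* (p = 0.0571 to 0.0857, exact permutation test). Endothelial markers were followed by 5 ligands when the smaller spread of the log2 difference decided and by 1, *Lgals9*, without H3 and H4. No paired analysis was possible because the library numbers follow accession order and the labels tie no control animal to an endFoxf1+/- animal. The unknown depth limits the low values of *Cd80*, *Pdcd1lg2* and *Cd276* most.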
